A study of Mus musculus with 10 samples.

Results

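The Myb family comprises 3 genes of 12394 on the array, Myb, Mybl1 and Mybl2, and was represented by all probe sets whose platform annotation names only 1 of these symbols. These were 6 of 22690 probe sets: 3 for Myb (1421317_x_at, 1422734_a_at and 1450194_a_at), 1 for Mybl1 (1450481_at) and 2 for Mybl2 (1417656_at and 1454946_at). No probe set that names several genes includes a member. Of the 6, 5 reached a mean intensity of 50 over the 10 arrays and were tested among 11856 probe sets that did, and the Mybl1 probe set did not.

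MYB proteins are transcription factors that bind DNA through tandem repeats of a helix-turn-helix fold. MYB keeps hematopoietic progenitors proliferating and immature, its level falls as granulocytes mature, and its forced expression holds myeloid cell lines back from differentiation. MYBL2 (B-MYB) is the form found in most cycling cells, where it joins the MuvB complex to activate genes of the G2 and M phases, and MYBL1 (A-MYB) acts chiefly in male germ cells. Myb and Mybl2 transcripts are known to be regulated with the cell cycle and the state of differentiation, so that their rates of decay bear on how quickly a myeloblast can change the level of these factors.

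The cells were 32Dcl3, a mouse myeloblast line kept in IL-3, in which G-CSF induces granulocytic maturation. In each of 2 experiments a culture was washed free of IL-3, given actinomycin D at 10 µg/ml to stop transcription, divided, and given IL-3 at 1 ng/ml (high) or at 0.01 ng/ml (low). RNA was taken at 0 h and, in either dose, at 2 h and 4 h, which gave 5 groups of 2 arrays each. Cells of every 2 h and 4 h group carried actinomycin D, and the labels differ on whether the 0 h cells were collected just before its addition or after it. Values below are given for experiment 1 and then experiment 2, and the comparison asked whether IL-3 slows the loss of a transcript once its synthesis has stopped.

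The deposited intensities are on a linear scale, with array medians of 48.8 to 70.6. Between the 2 experiments, intensities over all probe sets correlated at a Pearson r of 0.977 to 0.987 within a group. Of 10 myeloblast markers 7 had a mean intensity of at least 50, with Mpo at 2246, Prtn3 at 2171 and Ctsg at 3754, whereas Elane (19.6), Kit (8.0) and Cd34 (5.8) lay below it. None of the 5 lymphoid and 3 erythroid markers with a probe set reached 50, against 3 of 5 macrophage and 3 of 6 mast cell and basophil markers. The brightest of these were the macrophage marker Adgre1 at 2969, above Mpo and Prtn3, and the mast cell marker Cpa3 at 1243. In such bulk RNA, fewer cells of a type and less RNA per cell cannot be told apart.

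Myb signal was lost quickly in both doses of IL-3, and all 3 of its probe sets showed this. The probe set 1421317_x_at, some of whose probes by Affymetrix naming can also match other sequences, read 2748 and 2133 at 0 h. At 2 h it read 1836 and 1094 in high IL-3, against 1705 and 1097 in low IL-3. At 4 h it read 875 and 617 in high IL-3, against 784 and 589 in low IL-3. The 3 times did not overlap within an experiment, whereas the 2 doses overlapped at both times, with the experiment setting the level more than the dose did.

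The other Myb probe sets are of the type that detects several transcripts of 1 gene. The probe set 1450194_a_at read 1454 and 2075 at 0 h. At 2 h it read 1383 and 886 in high IL-3, against 687 and 933 in low IL-3. At 4 h it read 324 and 575 in high IL-3, against 337 and 432 in low IL-3. The 2 experiments disagreed at 2 h in high IL-3, where the signal of experiment 1 was close to that at 0 h and that of experiment 2 was below its low IL-3 partner.

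The probe set 1422734_a_at showed the same disagreement. It read 833 and 1316 at 0 h, 709 and 581 at 2 h in high IL-3, against 410 and 638 at 2 h in low IL-3. At 4 h it read 214 and 316 in high IL-3, against 216 and 329 in low IL-3. By 4 h the doses were nearly superimposed in each experiment.

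**Figure D1:**
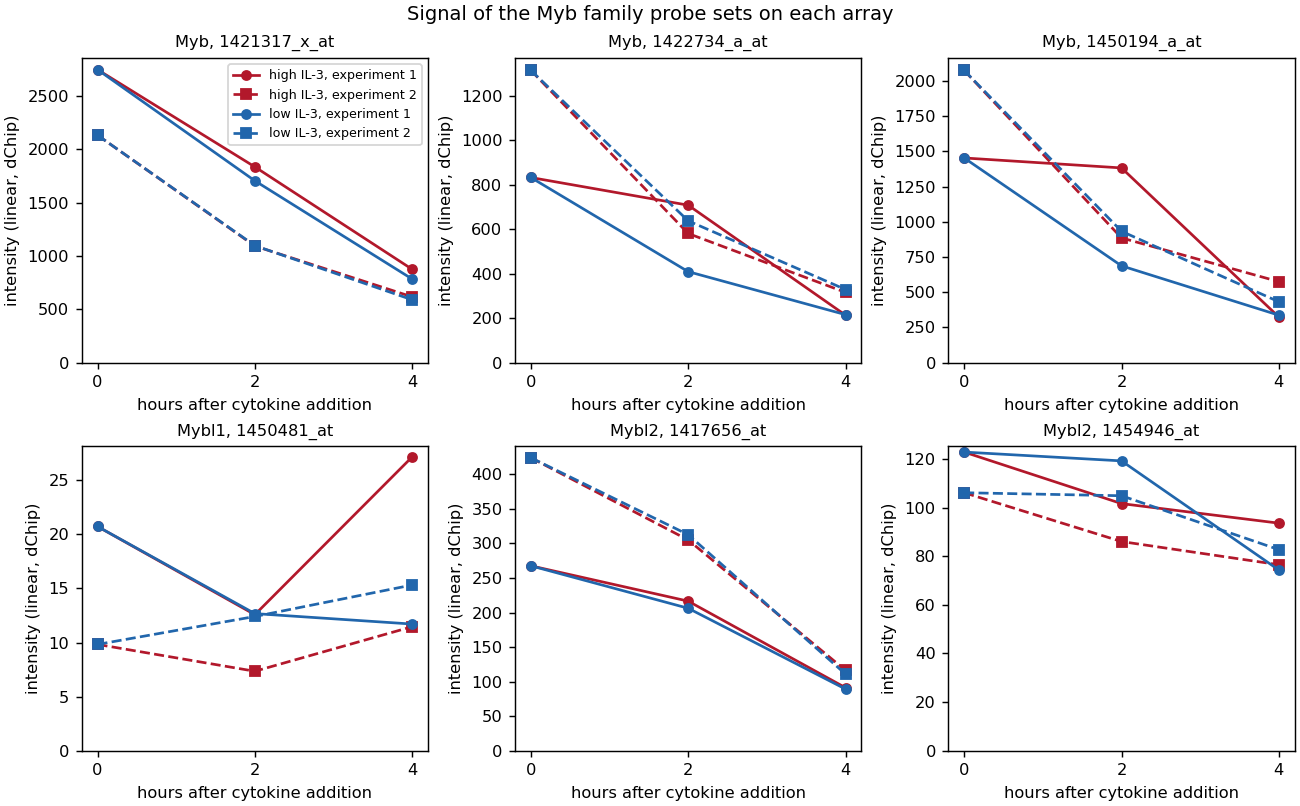
Intensity on a linear scale (vertical axes, from 0) against hours after cytokine addition for each of the 6 probe sets; red is high IL-3, blue is low IL-3, circles and solid lines are experiment 1, and squares and dashed lines are experiment 2, with 1 array per point and a 0 h array shared by both doses of an experiment. In the panels of Myb 1422734_a_at and 1450194_a_at the red circle at 2 h (709 and 1383) lies far above the blue circle (410 and 687), and no other pair of the Myb probe sets is as far apart.

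As a share of the 0 h signal in each experiment, the 3 Myb probe sets retained 24.8% to 30.4% at 4 h in high IL-3, against 22.0% to 28.1% in low IL-3 as means of the 2 experiments. The values for 1421317_x_at were 30.4% ± 2.07 in high IL-3, against 28.1% ± 0.631 in low IL-3 (SD, n = 2). For 1450194_a_at they were 25.0% ± 3.84 and 22.0% ± 1.67, and for 1422734_a_at 24.8% ± 1.13 and 25.5% ± 0.639, each in high and then low IL-3. The widest spread was that of 1450194_a_at in high IL-3, with 22.3% in experiment 1 and 27.7% in experiment 2. For this probe set and 1422734_a_at the SD in high IL-3 exceeded the difference between the doses.

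In limma's fit of all arrays the change from 0 h to 4 h passed the threshold for all 3 Myb probe sets in both doses, where 35.4% of tested probe sets fell in high IL-3, against 38.3% in low IL-3. The log2 change for 1450194_a_at was -1.97 (SE 0.22, adjusted p = 2.0e-06) in high IL-3, against -2.14 (SE 0.22, adjusted p = 6.9e-07) in low IL-3. That for 1421317_x_at was -1.70 (SE 0.11) and -1.81 (SE 0.11), and that for 1422734_a_at was -1.95 (SE 0.19) and -1.91 (SE 0.19), in high and then low IL-3. The median change of all tested probe sets was -0.10 in high and -0.12 in low IL-3 on the deposited values, and 0.31 and 0.30 when the arrays were scaled to a common 75th percentile. Relative to that median, with no test of the relative values, the Myb changes lay between -1.87 and -1.58 in high IL-3, against -2.02 to -1.66 in low IL-3 under the 4 scalings run.

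Half-lives were taken from 1 slope of the ratios to 0 h on the natural log scale, which assumes a constant rate of loss. Not all values kept to 1 rate. In high IL-3, 1450194_a_at stood at 95.1% and 42.7% of 0 h at 2 h, and at 22.3% and 27.7% at 4 h. The SDs below do not show such departures. Half-lives of the 3 Myb probe sets lay between 1.82 and 2.39 h. In high IL-3 they were 2.39 ± 0.264 h for 1421317_x_at, 2.15 ± 0.363 h for 1422734_a_at and 2.15 ± 0.172 h for 1450194_a_at. In low IL-3 they were 2.23 ± 0.127 h, 2.01 ± 0.035 h and 1.82 ± 0.09 h in the same order (SD, n = 2). For 1421317_x_at and 1422734_a_at the difference between doses was smaller than the larger SD, and for 1450194_a_at the half-lives in the 2 experiments were 2.27 and 2.03 h in high IL-3, against 1.89 and 1.76 h in low IL-3. From the 4 h ratio alone, without the 2 h arrays, they were 1.85 and 2.16 h in high IL-3, against 1.90 and 1.77 h in low IL-3, so that the order of the doses turned in experiment 1. All of these hours rest on the deposited scaling. With arrays scaled to a common 75th percentile the 4 h log2 change of 1421317_x_at in high IL-3 was -1.27, against -1.70 on the deposited values. Half-lives were not recomputed under that scaling.

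**Figure D2:**
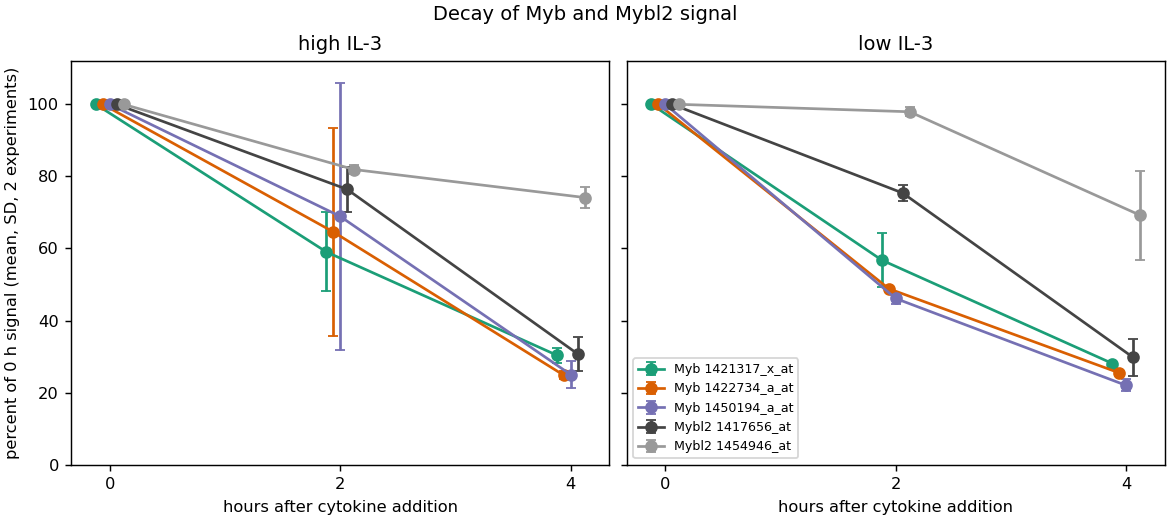
Signal as percent of that on the 0 h array of its own experiment (vertical axis; points are means and bars are SD of 2 experiments) against hours after cytokine addition, in high IL-3 (left) and low IL-3 (right), for the 5 tested probe sets; points are shifted sideways for legibility. The widest bars are those of Myb 1450194_a_at (68.9% ± 37.1) and 1422734_a_at (64.6% ± 28.9) at 2 h in high IL-3, and the 3 Myb probe sets and Mybl2 1417656_at all end between 22.0% and 30.8% at 4 h.

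Between high and low IL-3 over both times there was no Myb family probe set past the threshold. Of the 5 tested, 0 passed in either direction, against 0.709% of all tested probe sets (82 higher and 2 lower). At an unadjusted p under 0.05 there was also none among the 5, and 1003 among all 11856. The largest difference was that of Myb 1450194_a_at, with a log2 difference of 0.32 (SE 0.16, 95% interval -0.02 to 0.65, unadjusted p = 0.063, adjusted p = 0.63). It was followed by 1422734_a_at with 0.14 (interval -0.14 to 0.42, adjusted p = 0.86) and 1421317_x_at with 0.08 (interval -0.08 to 0.24, adjusted p = 0.86). Myb was among the transcripts that the study chose for Northern blots from a ranking of these same arrays. Its difference between doses here is therefore not independent evidence. On those blots of actinomycin D chases, the study reports slower loss of the chosen transcripts, Myb included, with IL-3 than without it. The blots compared IL-3 with medium alone, whereas the arrays compared a high with a low dose. The blots were not re-examined here.

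Pairs of arrays matched for experiment and time showed where this difference lay. At 2 h in experiment 1 the high IL-3 array was above its low IL-3 partner by a log2 of 0.99 in 1450194_a_at, a difference that 74 of the 11856 tested probe sets reached or exceeded in that pair. It was above by 0.77 in 1422734_a_at, which 188 reached or exceeded, and by 0.11 in 1421317_x_at, which 3587 reached or exceeded. In experiment 2 at 2 h the differences were -0.07, -0.13 and -0.0044 in that order of probe sets, so that none of the 3 was higher in high IL-3.

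At 4 h the 2 experiments again differed in 1450194_a_at, this time the other way round. Its log2 difference was -0.05 in experiment 1 and 0.40 in experiment 2, where 502 of the tested probe sets were at or above it. In 1422734_a_at the differences were -0.01 and -0.05, and in 1421317_x_at they were 0.16 and 0.06. High IL-3 was therefore above low IL-3 in 2 of 4 pairs for 1450194_a_at, in 1 of 4 for 1422734_a_at and in 3 of 4 for 1421317_x_at.

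**Figure D3:**
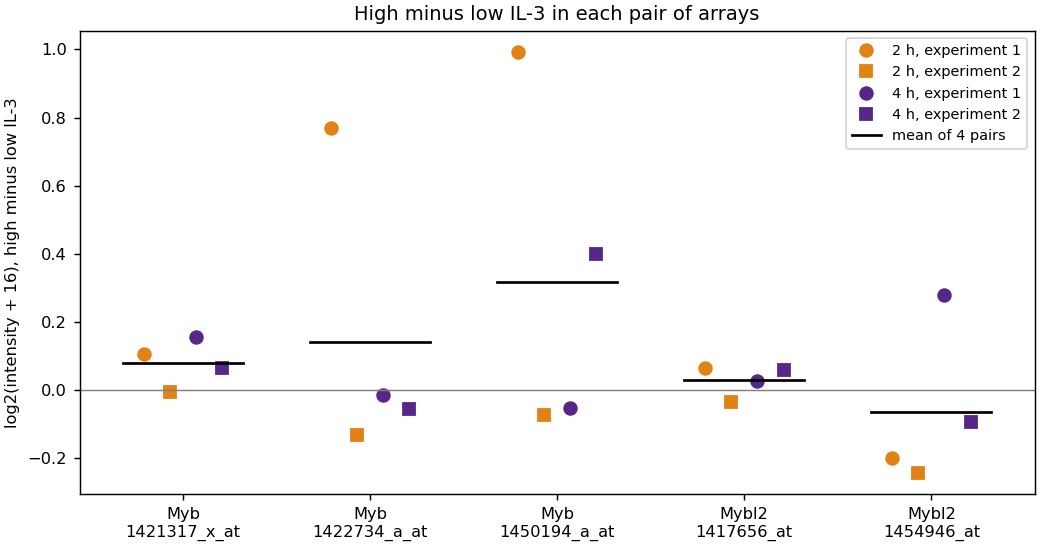
Difference in log2(intensity + 16), high minus low IL-3 (vertical axis), in each pair of arrays matched for experiment and time for the 5 tested probe sets; orange is 2 h, purple is 4 h, circles are experiment 1, squares are experiment 2, and the black line is the mean of the 4 pairs. For Myb 1450194_a_at and 1422734_a_at the circle at 2 h stands at 0.99 and 0.77 while the square at 2 h lies below 0.

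Taken by time, the difference at 2 h was 0.46 for 1450194_a_at (interval -0.02 to 0.93, adjusted p = 0.70) and 0.32 for 1422734_a_at (interval -0.08 to 0.71, adjusted p = 0.76), in a comparison with 0.059% of probe sets called. At 4 h the same probe sets differed by 0.17 and -0.03, with 0.405% of probe sets called and neither of them among these. The change in the IL-3 difference between 2 h and 4 h passed for 0 of the 5 members and for 0.0% of all tested probe sets in limma, with 684 at an unadjusted p under 0.05.

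Leaving out 1 array of 2 decided the Myb value. Without the 2 h high IL-3 array of experiment 1 the difference over both times was 0.028 for 1450194_a_at and -0.076 for 1422734_a_at, and at 2 h it was -0.12 for each. Without its counterpart of experiment 2 the difference over both times was 0.60 for 1450194_a_at (adjusted p = 0.0065), and at 2 h it was 1.04 for that probe set (adjusted p = 0.0027) and 0.75 for 1422734_a_at (adjusted p = 0.019). In each of these fits the single array left in the group is assumed to vary as the other groups do.

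The study's own measure of the IL-3 effect, the signed area between the high and low IL-3 decay curves (g_area) divided by a variability that depends on the 0 h signal (g_score), split the Myb probe sets in the same way. The g_score was 2.10 for 1450194_a_at (place 58 of 22690), 1.22 for 1422734_a_at (place 310) and 0.32 for 1421317_x_at (place 2513). Without the limit that sets high IL-3 ratios above 1 to 1, the scores were the same and the places were 257, 1073 and 5930. In experiment 1 alone these probe sets stood at places 8, 30 and 1845, and in experiment 2 alone at places 5021, 10018 and 5618. The g_area of 1450194_a_at was 0.948 in experiment 1 and 0.0235 in experiment 2, and that of 1422734_a_at was 0.715 and -0.0963. These places are a description, and no test was made on them.

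The ratio of the 2 experiments in each condition gave another view of the arrays at 2 h in high IL-3, in a comparison chosen after the values had been seen. For 1450194_a_at, experiment 1 over experiment 2 was 0.70 at 0 h, 1.56 and 0.74 at 2 h and 0.56 and 0.78 at 4 h, each in high and then low IL-3. For 1422734_a_at the ratio was 1.22 at 2 h in high IL-3 and between 0.63 and 0.68 in the other 4 conditions. Experiment 1 was thus the dimmer of the 2 in these probe sets except at 2 h in high IL-3. For 1421317_x_at it was the brighter in every condition, with ratios of 1.29 to 1.68.

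The log2 ratio of the experiments at 2 h in high IL-3 exceeded the mean of the other 4 conditions by 1.15 for 1450194_a_at and by 0.87 for 1422734_a_at, higher than in 99.6% and 98.8% of tested probe sets. For 1421317_x_at the excess was 0.27, higher than in 80.6%. Over all tested probe sets this departure had an SD of 0.29, and 102 (0.86%) departed by more than 1 in either direction. A departure of this size was thus not shared by most of the tested probe sets, and it does not tell which of the 2 arrays departs.

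**Figure D4:**
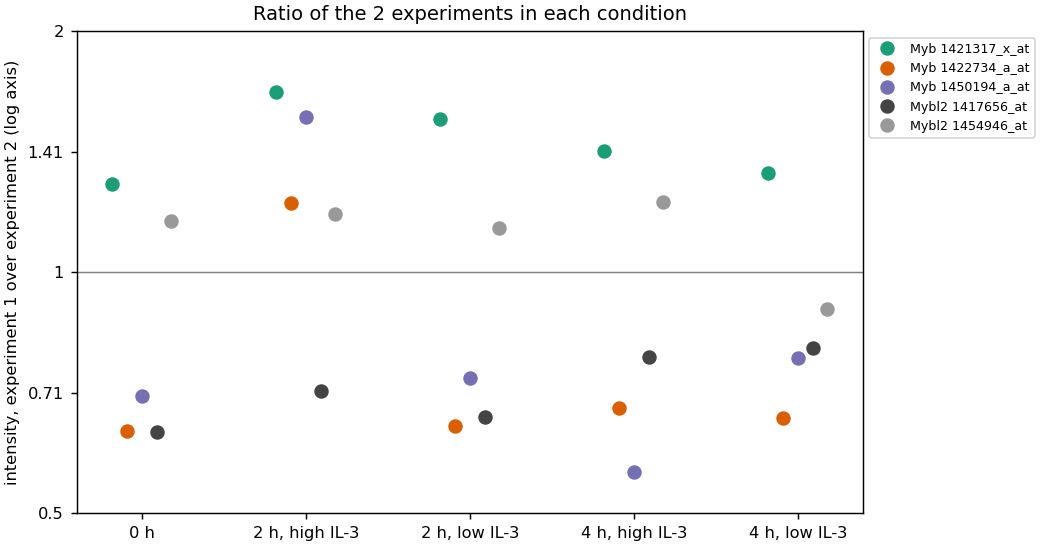
Intensity of experiment 1 over that of experiment 2 (vertical axis, log scale; 1 means equal) in the 5 conditions for the 5 tested probe sets, with 1 ratio of 2 arrays per point. Myb 1450194_a_at and 1422734_a_at lie below 1 in all conditions but 2 h in high IL-3, where they stand at 1.56 and 1.22, and Mybl2 1417656_at lies below 1 throughout.

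Agreement among the Myb probe sets was closest between the 2 of the same type. Over the 8 log2 ratios to 0 h, the root mean square difference was 0.17 between 1422734_a_at and 1450194_a_at. It was 0.23 between 1421317_x_at and 1422734_a_at and 0.35 between 1421317_x_at and 1450194_a_at. In both comparisons with 1421317_x_at the widest gap was on the 2 h high IL-3 array of experiment 1, where 1421317_x_at was lower by 0.35 and 0.51.

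Early loss of Myb passed in all 3 probe sets in both doses, and in high IL-3 the calls of 2 of them depended on single arrays. From 0 h to 2 h in low IL-3 the 3 probe sets fell, with log2 changes of -0.82 for 1421317_x_at, -1.01 for 1422734_a_at and -1.10 for 1450194_a_at (adjusted p = 3.2e-05, 0.00063 and 0.0014), in a comparison where 23.0% of tested probe sets fell. In high IL-3 the changes were -0.77, -0.69 and -0.64 (adjusted p = 6.9e-05, 0.012 and 0.045), where 22.6% fell. Without the 2 h high IL-3 array of experiment 2, the change in high IL-3 was -0.065 for 1450194_a_at (adjusted p = 0.82) and -0.26 for 1422734_a_at (adjusted p = 0.28). Both calls were also lost without the 0 h array of experiment 2 (adjusted p = 0.21 and 0.10), and that of 1450194_a_at without the 0 h array of experiment 1 or either low IL-3 array at 4 h (adjusted p = 0.055, 0.095 and 0.094). From 2 h to 4 h all 3 fell in both doses, with log2 changes of -1.33 to -0.93 in high IL-3, against -1.04 to -0.90 in low IL-3, where 18.7% and 18.9% of tested probe sets fell. The calls of 1422734_a_at and 1450194_a_at in low IL-3 over these hours were lost without the low IL-3 array of experiment 1 at 4 h (adjusted p = 0.075 and 0.081).

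Mybl2 was represented by 2 probe sets that gave different pictures. The probe set 1417656_at read 268 and 424 at 0 h. At 2 h it read 217 and 305 in high IL-3, against 206 and 313 in low IL-3. At 4 h it read 91.2 and 116 in high IL-3, against 89.3 and 111 in low IL-3. The doses were nearly equal at each time, and experiment 2 was the brighter throughout.

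In percent of 0 h this probe set retained 76.4% ± 6.33 at 2 h in high IL-3, against 75.4% ± 2.33 in low IL-3 (SD, n = 2). At 4 h it retained 30.8% ± 4.70 in high IL-3, against 29.8% ± 5.08 in low IL-3. The high minus low difference over both times was 0.03 on the log2 scale (SE 0.11, interval -0.20 to 0.26, adjusted p = 0.97). In hours, its half-life was 2.65 ± 0.392 in high IL-3, against 2.57 ± 0.353 h in low IL-3, so that the doses differed by less than the spread between experiments. These half-lives assume a constant rate, whereas the mean share fell less over the first 2 h than over the second.

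The loss of Mybl2 signal by 1417656_at passed over the second 2 h and not over the first. From 0 h to 2 h the log2 change was -0.37 in high IL-3 (adjusted p = 0.094) and -0.39 in low IL-3 (adjusted p = 0.085), and neither passed. From 2 h to 4 h the change was -1.20 in high IL-3 (adjusted p = 6.6e-05) and -1.23 in low IL-3 (adjusted p = 5.9e-05). Only 1.73% and 1.08% of tested probe sets had a lower value over those hours, against 24.3% and 24.0% over the first 2 h.

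The difference between the 2 intervals was itself tested, after these values had been seen. For Mybl2 1417656_at the second change minus the first was -0.83 in high IL-3 (SE 0.27, adjusted p = 0.12) and -0.84 in low IL-3 (SE 0.27, adjusted p = 0.14), and it passed for 0 of the 5 members in either dose, where 3.11% and 3.19% of tested probe sets were called. For Myb 1421317_x_at it was -0.17 and -0.18, so that this probe set fell by similar steps in the 2 intervals. For Myb 1422734_a_at and 1450194_a_at it was -0.56 and -0.68 in high IL-3, against 0.11 and 0.06 in low IL-3. In high IL-3 these 2 probe sets were thus nearer to Mybl2 1417656_at than to Myb 1421317_x_at. Over all 4 h, Mybl2 1417656_at changed by -1.57 on the log2 scale in high IL-3, against -1.61 in low IL-3 (adjusted p = 4.1e-07 and 2.7e-07).

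The second Mybl2 probe set, 1454946_at, was dimmer and changed little. It read 123 and 106 at 0 h, 102 and 86.0 at 2 h in high IL-3, against 119 and 105 at 2 h in low IL-3. At 4 h it read 93.6 and 76.5 in high IL-3, against 74.3 and 82.7 in low IL-3. At 2 h the high IL-3 array was the lower in both experiments, with a log2 difference of -0.22 (interval -0.59 to 0.14, adjusted p = 0.84), and at 4 h the pairs ran opposite ways.

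This probe set retained 74.1% ± 2.90 at 4 h in high IL-3, against 69.2% ± 12.3 in low IL-3. The change from 0 h to 4 h was -0.37 in high IL-3 (adjusted p = 0.091) and -0.46 in low IL-3 (adjusted p = 0.032). The call in low IL-3 was lost in 9 of 18 alternatives, 5 of which left out an array (0 h of either experiment, 2 h in low IL-3 of either, or 4 h in low IL-3 of experiment 1), and depended on the scaling, with -0.08 (adjusted p = 0.63) when the arrays were scaled to a common 75th percentile. The 2 Mybl2 probe sets differed by a root mean square of 0.87 over the 8 log2 ratios, against 0.34 between Mybl2 1417656_at and Myb 1421317_x_at. Which of the 2 follows the Mybl2 transcript of these cells was not tested.

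Mybl1, the germ cell member, stayed below an intensity of 50 on every array. Its probe set read 20.7 and 9.83 at 0 h, 12.6 and 7.35 at 2 h in high IL-3, against 12.7 and 12.4 at 2 h in low IL-3. At 4 h they were 27.2 and 11.5 in high IL-3, against 11.7 and 15.3 in low IL-3. In high IL-3 both experiments read lowest at 2 h and highest at 4 h, in low IL-3 their orders by time differed, and at 4 h the doses ran opposite ways. The gene was not tested. Since the deposited table holds no detection calls, a signal at this level was not told apart from background.

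Transcripts were sought whose course was most like that of 1421317_x_at, the brightest Myb probe set and the one that may match other sequences. The other Myb probe sets lay at root mean square differences of 0.23 and 0.35 from it. Genes named here are thus near to this probe set and were not compared with the others. Over the 8 log2 ratios to 0 h, compared among 10870 probe sets that averaged 50 or more and had 1 gene symbol, the 5 nearest genes were Tfec, Mbd1, Prr14, Eif3a and Rab14, with root mean square differences of 0.10 to 0.11. Tfec encodes a transcription factor of the MiT family, Mbd1 a protein that binds methylated CpG, Eif3a a subunit of a translation initiation factor and Rab14 a small GTPase of vesicle traffic. At 4 h Tfec retained 27.6% in high IL-3, against 27.3% in low IL-3, and Rab14 retained 28.3% and 29.6%. Mbd1 has 2 tested probe sets and Eif3a and Rab14 have 4 each, of which only the nearest was taken. The 8 ratios share the 0 h array of their experiment, and 5 of 10870 is the number that was asked for.

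Genes that work with MYB showed no call between the doses. Of 16 tested cofactors and regulators of MYB 0 passed, with a median log2 difference of 0.01, against 0.869% higher and 0.0147% lower among 6792 genes taken with 1 probe set each and a median of -0.01. Ets2, a transcription factor that activates promoters together with MYB, was at 0.49 (adjusted p = 0.074), and the kinase Pim1, which phosphorylates MYB and which the study also chose from these arrays, was at 0.48 (adjusted p = 0.074). Each was higher in high IL-3 in 4 of 4 pairs. Fbxw7, a ubiquitin ligase subunit that targets MYB for degradation, was at -0.45 (adjusted p = 0.30) and lower in 4 of 4 pairs. Ets2, Pim1 and Fbxw7 were named for the smallest p of this list in the comparison of the doses. That comparison rests on the same 4 pairs, so that their agreement is no separate support. The MYB-binding protein Mybbp1a had differences of 0.12 and 0.00 in its 2 probe sets.

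These cofactor transcripts were lost at unequal rates. Of the 16, 9 fell by 4 h in high IL-3, against 9 in low IL-3, with 40.6% and 43.6% of the 6792 genes falling. Ets2 retained 17.0% ± 3.64 at 4 h in high IL-3, against 8.77% ± 1.59 in low IL-3 (SD, n = 2). Pim1 retained 31.9% ± 13.2 and 21.8% ± 6.98, and Fbxw7 28.4% ± 12.0 and 42.6% ± 5.49, in high and then low IL-3. Mybl2 1417656_at and the Myb probe sets thus lay among the values of these partners at 4 h.

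Of 17 genes known as MYB targets in blood cells 7 were tested, and 0 passed between the doses, with a median of -0.05, where 0.869% of genes were higher and 0.0147% lower. At 4 h in low IL-3, the signal of 2 had fallen and that of 3 had risen, where 43.6% of genes fell and 13.7% rose. In high IL-3 the signal of 4 had fallen and that of 1 had risen, where 40.6% fell and 9.11% rose. The study treats readings above 0 h as measurement noise, because transcription was blocked. Gfi1, a repressor needed for neutrophil development, retained 11.1% ± 0.875 in high IL-3, against 11.3% ± 2.72 in low IL-3. Prtn3, which encodes proteinase 3 of neutrophil granules, retained 83.5% ± 6.89 and 88.0% ± 2.78. Cdk6, a G1 kinase, stood at 137% ± 0.649 and 196% ± 41.1 of its 0 h signal, again in high and then low IL-3. Its probe set was dim, with a mean intensity of 72.5 and 25.8 on its lowest array.

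Among the partners of MYBL2, 0 of 12 tested genes of the MuvB and DREAM complexes and their regulators passed between the doses, with a median of 0.01, where 0.869% of all genes were higher and 0.0147% lower. Lin9, a MuvB subunit, was at 0.34 (adjusted p = 0.43) and higher in 4 of 4 pairs, and Ccna2, whose product cyclin A2 activates the kinase that phosphorylates MYBL2, was at -0.27 (adjusted p = 0.16) and lower in 4 of 4 pairs. Both were named for a small p in this comparison, so that the agreement of its 4 pairs is no separate support. Of the 12, 8 fell by 4 h in high IL-3, against 7 in low IL-3, where 40.6% and 43.6% of the 6792 genes fell. Ccna2 retained 20.1% ± 3.06 at 4 h in high IL-3, against 26.9% ± 4.33 in low IL-3.

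Among the genes that MYBL2 and MuvB activate in G2 and M, 1 gene, Aurka, held the only call between the doses in these lists. A single call does not set this list apart from all genes, of which 0.869% were higher. Of 16 tested, 1 was higher in high IL-3 and 0 lower, with a median of 0.07 and 14 positive values, against 0.869% higher, a median of -0.01 and 3271 positive values among all 6792 genes. Aurka, the mitotic kinase Aurora A, was higher by a log2 of 0.67 (SE 0.13, adjusted p = 0.025) and in 4 of 4 pairs, and this call was lost in 8 of 19 alternatives, 5 of which left out an array of high or low IL-3, with values of 0.53 to 0.80 when an array was left out. It retained 7.58% ± 0.568 at 4 h in high IL-3, against 4.89% ± 0.805 in low IL-3. Nek2 (0.39, adjusted p = 0.16), Cdc20 (0.18, adjusted p = 0.20) and Cdk1 (0.17, adjusted p = 0.27), all of which act in mitosis, were higher in 4 of 4 pairs without passing. The genes named here had the smallest p of the list, so that the agreement of their 4 pairs is no separate support.

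Most of these G2 and M transcripts were lost over the 4 h. Of the 16, 14 fell in high IL-3, against 15 in low IL-3, with median log2 changes of -1.13 and -1.33, where 40.6% and 43.6% of the 6792 genes fell with medians of -0.16 and -0.21. Cdk1 retained 45.4% ± 3.38 in high IL-3, against 36.9% ± 0.636 in low IL-3, and Nek2 retained 43.1% ± 0.795 and 28.7% ± 2.08. Mybl2 itself, by 1417656_at, ended at 30.8% in high and 29.8% in low IL-3, a lower share of its 0 h signal than Cdk1 in each dose. By 1454946_at it ended at 74.1% and 69.2%, a higher share than Cdk1. Aurka ended lower than both Mybl2 probe sets in each dose.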

How the data were processed

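Total RNA of 32Dcl3 cells was hybridised to 10 Affymetrix mouse 430A 2.0 arrays, 2 for each of 5 groups (experiments 1 and 2). The authors normalized the arrays together with dChip at its default settings (version not given in the sources used here) and deposited linear intensity values of 22690 probe sets. Precision is limited by the number of arrays. Gene names come from the platform annotation: 20393 have 1 symbol, 691 several and 1606 none, and symbols were updated through gene IDs of a RefSeq table.

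Those 11856 probe sets whose intensity averaged 50 or more were tested with limma (version 3.58.1, R 4.3.3) after a log2(intensity + 16) transformation, in 1 model of all 5 groups blocked by experiment, with a trend in eBayes and a Benjamini-Hochberg threshold of 0.05. Folds on this scale understate changes of dim probe sets. The pairing follows the design, in which a single culture was divided for each experiment, and arrays of an experiment deviated together from their group means (r = 0.762 to 0.887 between groups). The block takes out the mean difference between the 2 experiments. The p-values measure the spread between them that is left, pooled over the 5 groups and moderated over all tested probe sets by eBayes. The g_score followed the study's supplemental methods: high IL-3 ratios above 1 were set to 1, and the variability was taken over 500 places either side in 0 h signal, without the 6 largest differences. Python 3.11.15, numpy 2.4.6, pandas 2.3.3 and matplotlib 3.10.9 were also used. Of the steps, only the limma comparison of high with low IL-3 was tested on simulated data.

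The members and the lists (MYB cofactors and regulators, MYB targets, MuvB and DREAM genes, MYBL2-MuvB targets, other proteins with a Myb or SANT repeat, and cell type markers) were chosen with earlier results of these data known. Named are all member probe sets, Mybbp1a, the list genes that passed between the doses and up to 3 more with the smallest p per list, the 5 genes nearest to Myb, and Gapdh. In lists each gene has its brightest probe set. Alternatives were pseudocounts of 1 and 64, no filter or a filter at 200, scaling to the 75th percentile or Gapdh, quantile normalization, no block, no trend, and each array left out.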

Additional observations from a re-analysis of the deposited data

How the results depend on the processing

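Of 1466 values recomputed with limma, 1357 kept their direction and their side of the threshold, 47 lost a call, 12 gained one and 50 changed sign. Many could not change direction. The settings of filter, block and trend return the same log2 value, as does leaving out an array from outside the comparison. The number kept is therefore no measure of robustness. All 38 g_scores and half-lives recomputed over both experiments moved by less than the SD of the 2 experiments. For the g_scores of Myb 1450194_a_at and 1422734_a_at this SD is so wide that the comparison could hardly show a move. No ratio of the Myb and Mybl2 probe sets exceeded 1. Changing the limit on ratios above 1 therefore could not move their g_scores, although their places moved without it. Half-lives were recomputed only with scaling to Gapdh and from the 4 h ratio alone. The g_score of experiment 1 or 2 alone was 4.09 or 0.10 for Myb 1450194_a_at and 2.82 or -0.38 for 1422734_a_at. The alternatives for the 2 h steps, for the difference of the steps and for the list genes were chosen after seeing the data. The 4 h losses of the 3 Myb probe sets and of Mybl2 1417656_at passed in all 19 alternatives each. The cause of the changes below was not tested, and 2 arrays per group limit all of them.

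Without the experiment as a replicate block, the values stayed the same and the calls were lost for the changes of the 3 Myb probe sets from 0 h to 2 h in high IL-3 (-0.77, -0.69 and -0.64) and low IL-3 (-0.82, -1.01 and -1.10). They were also lost for the changes from 2 h to 4 h of Myb (-0.93, -1.25 and -1.33 in high IL-3, and -0.99, -0.90 and -1.04 in low IL-3) and Mybl2 1417656_at (-1.20 and -1.23), for Mybl2 1454946_at to 4 h in low IL-3 (-0.46, adjusted p = 0.17) and for Aurka (0.67). Without a filter, calls were lost for Myb 1450194_a_at to 2 h in high IL-3 (-0.64, adjusted p = 0.13), for Mybl2 1454946_at to 4 h in low IL-3 (-0.46, adjusted p = 0.074) and for Aurka (0.67, adjusted p = 0.14). Without a trend, the calls of Myb 1422734_a_at (-0.69, adjusted p = 0.053) and 1450194_a_at (-0.64, adjusted p = 0.15) to 2 h in high IL-3 and of Aurka (adjusted p = 0.13) were lost. Mybl2 1454946_at passed without a trend from 0 h to 4 h in high IL-3 (-0.37, adjusted p = 0.034) and from 2 h to 4 h in low IL-3 (-0.44, adjusted p = 0.036).

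With arrays scaled to a common 75th percentile, the early change in high IL-3 (to 2 h) no longer passed for Myb 1422734_a_at (-0.43) and 1450194_a_at (-0.38), nor that of Mybl2 1454946_at to 4 h in low IL-3 (-0.082). The sign turned for Mybl2 1417656_at between doses at 2 h (-0.0005), for Mybl2 1454946_at to 2 h in low IL-3 (0.22) and from 2 h to 4 h in high IL-3 (0.017), for the difference of the steps in low IL-3 of Myb 1422734_a_at (-0.018) and 1450194_a_at (-0.066), and for Mybbp1a 1423431_a_at (-0.014). With quantile normalization the same 2 Myb calls were lost (-0.45 and -0.48), as was that of Mybl2 1454946_at (-0.080). Its sign turned from 0 h to 2 h in high IL-3 (0.0036) and low IL-3 (0.24), to 4 h in high IL-3 (0.0028) and in the difference of the steps in high IL-3 (-0.0044), and so did those of Mybl2 1417656_at between doses at 2 h (-0.003) and of Mybbp1a 1423431_a_at (-0.0024). Ets2 passed with a pseudocount of 1 (0.62, adjusted p = 0.049) and Pim1 with scaling to Gapdh (0.50, adjusted p = 0.041).

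With each array left out in turn, the high minus low difference over both times lay between 0.014 and 0.15 for Myb 1421317_x_at, -0.076 and 0.36 for 1422734_a_at, 0.028 and 0.60 for 1450194_a_at, -0.026 and 0.085 for Mybl2 1417656_at, and -0.15 and 0.017 for 1454946_at. In that order it lay at 2 h between -0.083 and 0.18, -0.12 and 0.75, -0.12 and 1.04, -0.058 and 0.089, and -0.27 and -0.18, and at 4 h between 0.033 and 0.19, -0.13 and 0.061, -0.14 and 0.49, -0.068 and 0.15, and -0.071 and 0.26. The difference at 4 h minus that at 2 h lay between -0.074 and 0.19, -0.79 and 0.083, -0.86 and 0.29 (adjusted p = 0.048 without the 2 h high IL-3 array of experiment 2), -0.083 and 0.14, and 0.15 and 0.48.

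The changes to 2 h in high IL-3 lay between -1.13 and -0.26 for Myb 1422734_a_at and -1.22 and -0.065 for 1450194_a_at, and that of Mybl2 1454946_at in low IL-3 between -0.059 and 0.0057. From 2 h to 4 h in low IL-3 the range was -1.02 to -0.77 for Myb 1422734_a_at and -1.13 to -0.95 for 1450194_a_at. Mybl2 1454946_at to 4 h in low IL-3 lay between -0.63 and -0.30. The second step minus the first in high IL-3 lay between -0.43 and 0.099, -1.43 and 0.31, and -1.84 and 0.47 for the 3 Myb probe sets, with adjusted p = 0.008 for 1422734_a_at and 0.0016 for 1450194_a_at without the 2 h high IL-3 array of experiment 2, and in low IL-3 between -0.14 and 0.36 for 1422734_a_at and -0.12 and 0.24 for 1450194_a_at. Among list genes the range was 0.53 to 0.80 for Aurka, 0.39 to 0.57 for Pim1 (which passed without either 0 h array), -0.10 to 0.0088 for Prtn3 and -0.055 to 0.058 for Mybbp1a 1423431_a_at.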

Other observations

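Other proteins carry Myb or SANT repeats without belonging to the Myb family. Of 16 tested genes of this kind 0 passed between high and low IL-3, with a median log2 difference of 0.04 and 12 positive values, against 0.869% higher, 0.0147% lower and 3271 positive values among 6792 genes. Cdc5l, a splicing factor with Myb repeats, was at 0.37 (SE 0.11, adjusted p = 0.16) and higher in 4 of 4 pairs. It retained 19.7% ± 2.05 at 4 h in high IL-3, against 12.8% ± 2.22 in low IL-3 (SD, n = 2). Dmtf1, a Myb-like transcription factor that binds D cyclins, was at 0.30 (adjusted p = 0.30) and higher in 4 of 4 pairs, and Smarcc1, a chromatin remodelling subunit with a SANT domain, was at -0.15 (adjusted p = 0.64) and lower in 4 of 4 pairs. Cdc5l, Dmtf1 and Smarcc1 had the smallest p of this list, so that the agreement of their 4 pairs is no separate support. Of the 16, 9 fell by 4 h in high IL-3, against 12 in low IL-3, where 40.6% and 43.6% of genes fell. Gapdh, the loading control of the study's blots, differed between doses by -0.01, -0.01 and -0.03 in its 3 probe sets.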
